A study of Mus musculus with 2 samples.

Results

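The 9 chemokine receptors described here were followed through the leukocytes of visceral adipose tissue (VAT): Ccr1, Ccr2, Ccr7, Ccr9, Cx3cr1, Cxcr3, Cxcr4, Cxcr6 and Xcr1. They were chosen by gene symbol, and are 9 of the 27998 genes counted in each library. Each had 1 row in the count tables, and its counts were read in every cell of both libraries. All cells came from the perigonadal fat of C57BL/6J male mice, 6 weeks old at purchase and acclimated for 2 weeks, which were then fed a diet with 60% of its kcal from fat and 0.3% cholesterol for 24 weeks while receiving 5 mg/kg of an antisense oligonucleotide against the low-density lipoprotein receptor each week, so that obesity and high plasma cholesterol are shared by both groups. Mice of the obese group were taken at that point, and mice of the calorically restricted (CR) group then received 70% of their usual intake of the same diet for 2 weeks. The CR label in the repository instead calls the restriction life-long, and the description from the study's methods is used here. Live CD45+ cells, CD45 being the surface protein that marks cells of blood origin, were sorted and made into 1 single-cell library per group, so that no value below has a replicate. How many mice were pooled in each library is not given in the sources used here.

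Chemokine receptors span the membrane of leukocytes and signal through inhibitory G proteins when a chemokine binds, which steers the cell along the gradient of that chemokine. Ccr2 draws classical monocytes out of the bone marrow and into inflamed fat, and Cx3cr1 marks patrolling monocytes and many tissue macrophages (MØs). Ccr7 guides mature dendritic cells (DCs) and naive lymphocytes to lymph nodes, Xcr1 marks the cross-presenting cDC1 lineage, Ccr9 is known from the gut and from plasmacytoid DCs (pDCs), Cxcr3 and Cxcr6 belong to effector lymphocytes, Ccr1 to monocytes and neutrophils, and Cxcr4 is the broadly used receptor that holds cells in tissue niches.

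Expression is given in CPM, the unique molecular identifiers (UMIs, counted transcripts) of a receptor per 1000000 UMIs of all genes, summed over the cells of a type, with a 95% exact Poisson interval. Of 5795 obese and 3562 CR barcodes, 5262 and 2987 were kept. Of these, 4977 and 2363 were leukocytes by marker genes, holding 37989819 and 13616855 UMIs. Cells were assigned to types cell by cell from marker genes that include none of the receptors. MØs were divided into Fcgr4-high MØs (at least 5 UMIs of the Fc receptor gene Fcgr4), lipid-associated MØs (Trem2, Gpnmb, Lpl and others), resident MØs (Lyve1, Cbr2, Folr2 and others) and the remaining MØs. Within 1 UMI of the Fcgr4 limit lay 183 obese and 59 CR MØs, beside 369 and 604 Fcgr4-high MØs. In the sort, 141 obese cells (2.68%) and 546 CR cells (18.3%) carried fibroblast, endothelial, pericyte or mesothelial markers, although CD45+ cells had been sought, and they were set aside. The barcodes common to both libraries numbered 28, of which 18 were kept cells. The median UMI total of a leukocyte was 6679 in the obese and 4460 in the CR library. Shares of cells with a UMI are therefore given after every cell had been thinned at random to 1500 UMIs, a total that every kept cell reached. In the cells set aside, which are not expected to use most of these receptors and which had medians of 5913 and 5483.5 UMIs, the thinned share with a UMI was 7.09% in the obese and 2.01% in the CR library for Ccr2, and at most 2.84% for the other receptors. Their level of Ccr2 was 64.3 and 20.7 CPM, and for the other receptors the level ran from 0.592 to 13.7. A level near these values is treated as background and not read as expression. All intervals cover counting error only.

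Most of the receptor genes sit close together. In the GRCm38 annotation, 6 of the 9 lie on chromosome 9, and 5 of them (Ccr9, Cxcr6, Xcr1, Ccr1 and Ccr2) within 435119 bases, at chr9:123678439-124113557. Cx3cr1 lies on the same chromosome at chr9:119901616-120069879, Ccr7 at chr11:99144196-99155077, Cxcr3 at chrX:101731535-101734269 and Cxcr4 at chr1:128588199-128592293. All 9 are annotated as protein-coding. Exons of Ccr9 overlap exons of Slc6a20a on the opposite strand, Cxcr6 lies within the span of Fyco1 on the opposite strand without sharing an exon, and the long span of Cx3cr1 holds Wdr48, Gorasp1, Ttc21a, Csrnp1 and Xirp1 between its exons. Promoter windows were available for 8 of the 9 receptors in the RefSeq table on GRCm38.p6. The 250 bases before the start are shown for the 3 whose window holds no annotated exon: Xcr1, the receptor most confined to 1 cell type, Cxcr4, whose log2 ratio of CR over obese was below 0 in 11 of 12 types, and Ccr1, whose ratio was above 0 in 5 of 7 types measured. Capitals mark matches, on either strand, to GAGGAA (a core of the myeloid factor Spi1), TGTGGT (a Runx core) and CACCC (a Klf core). All 3 genes lie on the minus strand.
Xcr1, chr9:123862030-123862279: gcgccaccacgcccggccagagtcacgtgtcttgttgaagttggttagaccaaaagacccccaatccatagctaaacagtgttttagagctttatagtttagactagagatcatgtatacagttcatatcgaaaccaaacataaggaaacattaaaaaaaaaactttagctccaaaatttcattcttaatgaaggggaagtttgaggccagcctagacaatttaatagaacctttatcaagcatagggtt
Cxcr4, chr1:128592300-128592549: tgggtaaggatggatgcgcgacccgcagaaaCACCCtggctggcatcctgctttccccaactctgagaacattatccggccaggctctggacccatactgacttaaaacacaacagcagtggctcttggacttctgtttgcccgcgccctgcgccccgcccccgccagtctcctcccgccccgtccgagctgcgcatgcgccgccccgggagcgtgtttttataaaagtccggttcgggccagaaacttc
Ccr1, chr9:123968693-123968942: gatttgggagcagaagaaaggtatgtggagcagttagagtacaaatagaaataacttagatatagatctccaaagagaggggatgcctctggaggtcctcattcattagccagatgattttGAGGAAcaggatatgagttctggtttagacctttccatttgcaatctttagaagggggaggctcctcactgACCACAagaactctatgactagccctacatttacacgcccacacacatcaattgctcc
The Ccr1 window holds 1 Spi1 core and 1 Runx core, the Cxcr4 window holds 1 Klf core, and the Xcr1 window holds none of these letters. Of 32851 promoter windows of the same length in the table, 23.3% hold GAGGAA, 14.05% TGTGGT and 52.0% CACCC, so that each match is a description of letters and not of a site in use.

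The first comparison asked which leukocyte carries which receptor. Each receptor had its own distribution, and the receptors differed in how many types carried them. Of the 12 types with at least 50 cells in both libraries, Ccr2 was at 50 CPM or more in both libraries in 10, Cxcr3 and Cxcr4 in 4 each, Ccr7 and Cx3cr1 in 3 each, Cxcr6 in 2, Ccr1 and Xcr1 in 1 each and Ccr9 in 0. The heat map of receptor levels by type shows this pattern in both libraries side by side.

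**Figure D1:**
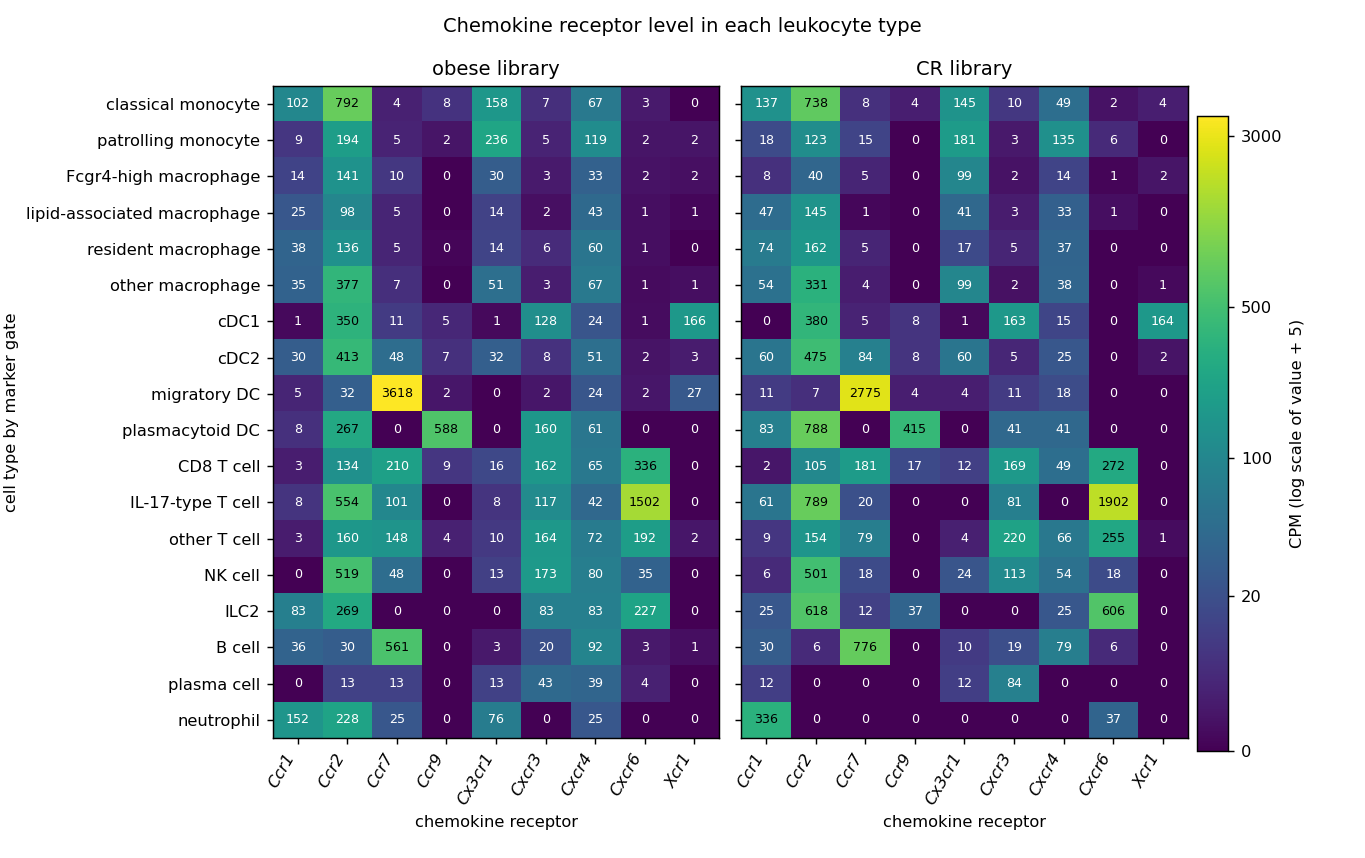
Level of each chemokine receptor (columns) in each leukocyte type by marker gate (rows), in CPM on a colour scale that is logarithmic in the value plus 5, for the obese library (left) and the CR library (right), with the value printed in each cell. Bright cells single out migratory DCs for Ccr7 (3618 and 2775), IL-17-type T cells for Cxcr6 (1502 and 1902), pDCs for Ccr9 (588 and 415) and cDC1 for Xcr1 (166 and 164), while Ccr2 is bright in many rows.

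Among the receptors of monocytes and MØs, Ccr2, the receptor for Ccl2 and related monocyte attractants, was highest in classical monocytes of the obese library at 792 CPM (737 to 850), against 738 (667 to 815) in the CR library. In the CR library the few IL-17-type T cells (789, 561 to 1079) and pDCs (788, 558 to 1082) stood beside classical monocytes with overlapping intervals. Ccr2 was not a receptor of monocytes alone. NK cells carried 519 and 501 (obese and CR, as in every pair of values that follows), cDC2 413 and 475, cDC1 350 and 380, and the remaining MØs 377 and 331. Patrolling monocytes were lower, at 194 and 123, and B cells (30.3 and 5.97) were below the cells set aside in the sort. By cell, 65.0% and 55.9% of classical monocytes held a Ccr2 UMI after thinning, as did 55.3% and 52.7% of NK cells, 44.7% and 42.1% of cDC2 and 38.4% and 43.5% of cDC1, against 8.65% and 8.51% of patrolling monocytes, where the cells set aside had 7.09% and 2.01%. The medians before thinning were 6141 and 8210.5 UMIs in classical monocytes, 3384 and 3042 in NK cells and 3643.5 and 3105 in patrolling monocytes.

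Cx3cr1, the receptor for the membrane-bound chemokine fractalkine, was highest in patrolling monocytes at 236 (192 to 286) and 181 (139 to 232), followed by classical monocytes at 158 (135 to 185) and 145 (114 to 181). These neighbours were apart in the obese library, and their intervals overlapped in the CR library. MØ types and cDC2 followed, and here the order differed between the libraries. The remaining MØs held 51.4 and 98.6, cDC2 32.3 and 59.9, and Fcgr4-high MØs 30.03 and 99.1. Lipid-associated MØs held 13.6 and 41.3, and resident MØs 14.5 and 17.2. Lymphocytes and cDC1 ranged up to 23.8. The thinned share with a UMI was 26.9% and 27.7% of patrolling monocytes and 17.2% and 19.1% of classical monocytes.

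Ccr1, a receptor for several inflammatory chemokines, was highest in neutrophils (152 and 336), which rest on 10 and 11 cells and on 6 and 9 UMIs, so that their intervals overlapped those of classical monocytes at 102 (82.6 to 123) and 137 (107 to 172). Among the other types with at least 50 cells, resident MØs (37.5 and 73.7), the remaining MØs (34.7 and 53.8), cDC2 (30.2 and 59.9) and B cells (36.1 and 29.9) came next, with lipid-associated MØs at 24.8 and 46.6, while cDC1 held 0.940 in the obese library and 0 of 1061799 UMIs in the CR library, where a count of 3 would be a level of 2.83.

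Among the receptors of DCs, Ccr7 was by far highest in migratory DCs, the mature DCs marked here by Fscn1 and Ccl22, with 3618 (3437 to 3807) and 2775 (2581 to 2980). B cells came next with 561 (506 to 619) and 776 (711 to 846), then CD8 T cells with 210 and 181 and other T cells with 148 and 78.8. After thinning, 90.3% and 97.4% of migratory DCs held a Ccr7 UMI, against 45.1% and 59.0% of B cells and 0.993% of obese lipid-associated MØs. Ccr2 was nearly absent from the same migratory DCs, at 31.6 and 7.30, while cDC1 and cDC2 carried Ccr2 and little Ccr7 (10.97 and 4.71 in cDC1, 47.6 and 84.1 in cDC2).

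Xcr1, the receptor for the lymphocyte chemokine Xcl1, was confined more than any other to 1 type. cDC1 held 166 (153 to 181) and 164 (140 to 190), and 81.7% and 82.1% of all Xcr1 UMIs of leukocytes, with most of the rest in cells that carried markers of more than 1 lineage (9.38% and 8.96%). Every other type held at most 26.7, that value being of obese migratory DCs. A thinned UMI was found in 22.5% and 19.6% of cDC1 (medians of 10534 and 11345 UMIs before thinning) and in 0.203% of the remaining MØs of the obese library. Ccr9, the receptor for Ccl25, was carried by pDCs at 588 (464 to 734) and 415 (253 to 641), from 23 and 7 cells, and 56.5% and 42.9% of pDCs held a thinned UMI. No other type exceeded 37.1, the value of CR ILC2, which rests on 3 UMIs. The few pDCs held 51.0% and 39.2% of all Ccr9 UMIs.

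Among the receptors of effector lymphocytes, Cxcr6, the receptor for Cxcl16, was highest in IL-17-type T cells (34 and 17 cells) at 1502 (1290 to 1739) and 1902 (1537 to 2327), where 82.4% and 94.1% held a thinned UMI. CD8 T cells held 336 and 272 and came second in the obese library, and other T cells held 192 and 255. ILC2, a lymphoid cell of fat known for Il5 and Il13, held 227 and 606 from 12 and 29 cells and came second in the CR library. NK cells were low, at 35.1 and 17.9. T cells together held 80.8% and 75.3% of all Cxcr6 UMIs. Cxcr3, the receptor for Cxcl9 and Cxcl10, was at similar levels in 3 lymphocyte types and lower in B cells (20.2 and 19.4). NK cells held 173 and 113, CD8 T cells 162 and 169 and other T cells 164 and 220, with overlapping intervals between the leading type and the next in each library. cDC1 were within the same range, at 128 (115 to 141) and 163 (140 to 189), and held 33.9% and 31.6% of all Cxcr3 UMIs, while cDC2 held 7.94 and 5.26. A thinned Cxcr3 UMI was found in 16.3% and 18.5% of cDC1, against 18.4% and 17.5% of CD8 T cells and 0.298% of obese lipid-associated MØs.

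Cxcr4, the receptor for Cxcl12, was spread over many types. Patrolling monocytes led with 119 (88.6 to 156) and 135 (98.5 to 179), and B cells followed with 92.5 (71.2 to 118) and 79.1 (59.3 to 103), intervals that overlapped in both libraries. NK cells (80.2 and 53.7), other T cells (72.4 and 65.9), the remaining MØs (67.3 and 37.7) and classical monocytes (67.0 and 49.5) came after. Fcgr4-high MØs and cDC1 were lowest of the 12 types in both libraries, with 33.4 and 14.2 in the former and 23.8 and 15.1 in the latter.

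Because types differ in number, the type with the highest level was not always the one that held most of a receptor. MØs were 53.9% of obese and 41.6% of CR leukocytes, and held 60.2% and 50.2% of the UMIs of all genes. They held 49.3% and 29.97% of Ccr2 UMIs, 56.9% and 67.8% of Cx3cr1 UMIs, 57.5% and 34.3% of Cxcr4 UMIs and 65.3% and 48.3% of Ccr1 UMIs. Of these, only Ccr1 in the obese and Cx3cr1 in the CR library lay above the MØ share of all UMIs. DCs, at 12.1% and 10.6% of cells and 14.8% and 17.1% of all UMIs, held 22.3% and 33.4% of Ccr2 UMIs and 51.4% and 49.3% of Ccr7 UMIs. B and plasma cells held 12.5% of Ccr7 UMIs in the obese and 30.4% in the CR library. The chart of receptor UMIs by compartment shows these shares beside the makeup of all cells.

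**Figure D2:**
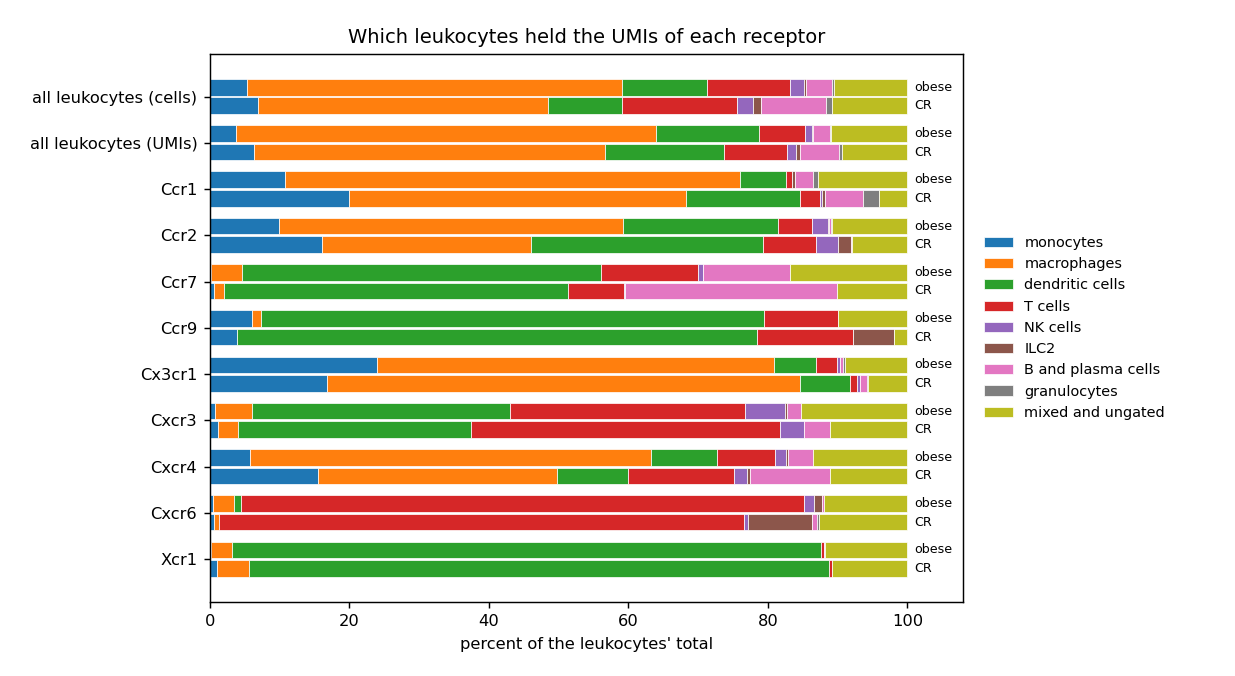
Percent of each receptor's leukocyte UMIs held by each compartment (stacked, horizontal axis), with the obese bar above the CR bar, below 2 pairs of bars for all leukocyte cells and all leukocyte UMIs. Cxcr6 is mostly in T cells (80.8% and 75.3%), Xcr1 and Ccr9 mostly in DCs (84.3% and 83.0%, 72.2% and 74.5%), and the B cell part of Ccr7 is wider in the CR bar.

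Receptors also met in the same cell. Among classical monocytes, 20 of 157 obese and 6 of 68 CR cells held a thinned UMI of both Ccr2 and Cx3cr1, while 82 and 32 held Ccr2 alone and 7 and 7 Cx3cr1 alone. The share with both, 12.7% and 8.82%, was near the 11.2% and 10.7% that the product of the single shares gives. Among patrolling monocytes the order was the other way round, with 8 and 8 cells holding Ccr2 alone, 27 and 26 Cx3cr1 alone, and 1 of 104 obese cells and 0 of 94 CR cells both, which allows a share of up to 3.19%. Of the IL-17-type T cells, 16 of 34 and 10 of 17 held both Ccr2 and Cxcr6, which is 47.1% and 58.8% against products of 43.6% and 60.9%. Of CD8 T cells, 14 of 277 and 8 of 120 held both Cxcr3 and Cxcr6, and of cDC1, 28 of 289 and 6 of 92 held both Ccr2 and Xcr1, with products of 5.58% and 4.52% for the former and 8.64% and 8.51% for the latter pair against shares of 5.05% and 6.67%, and of 9.69% and 6.52%. Not every pair lay near its product. In other T cells Ccr2 and Cxcr6 met in 6.07% and 7.6% of cells, against products of 3.40% and 3.43%. In the remaining MØs Ccr2 and Ccr1 met in 2.14% and 3.23%, against 1.32% and 1.36%. For Ccr2 and Cx3cr1 in patrolling monocytes the shares were 0.962% and 0%, against products of 2.33% and 2.35%. These rest on 1 and 0 cells, too few to tell the shares from the products. At 1500 UMIs per cell most transcripts of a cell are not seen, so that a cell with 1 receptor may also carry the other.

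The second comparison set CR against obese. Over all leukocytes, Cx3cr1 had the largest difference of the 9, at 28.2 (26.55 to 29.96) and 60.4 (56.3 to 64.6). Its log2 ratio was 0.98 (0.86 to 1.09) with 5 CPM added to each side. With all kept cells or with another scaling (TMM), the log2 ratio of Cxcr4 was about as large in size. Ccr7 was 82.7 and 126 (log2 0.58, 0.50 to 0.66), Cxcr6 26.3 and 39.2 (0.50, 0.37 to 0.63) and Cxcr3 31.6 and 40.2 (0.31, 0.18 to 0.44). Cxcr4 was 53.3 and 34.2 (-0.57, -0.70 to -0.44) and Ccr2 229.8 and 197 (-0.22, -0.28 to -0.16). Ccr1 (25.5 and 28.7), Ccr9 (3.97 and 3.75) and Xcr1 (17.1 and 15.6) had intervals of the ratio that included 0, and the sign for Ccr1 changed when the cells set aside were kept, with another scaling (TMM) or with a mean over cells. A change was counted as past the fold when it was at least 2-fold with an interval that left out no change, and by that measure 0 of the 9 receptors passed, against 1.61% of all 12952 genes measured that were higher in CR and 0.263% that were lower. The median log2 ratio over those genes was 0.10. The share of leukocytes with a thinned UMI was 4.32% and 7.49% for Cx3cr1, 6.33% and 10.2% for Ccr7, 8.22% and 5.84% for Cxcr4 and 23.3% and 16.2% for Ccr2.

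The libraries also differed in their mix of leukocytes, and the ratios were therefore recomputed with 1 side exchanged. With the obese levels in every type and the CR mix, the log2 ratio of Ccr7 was 0.67, and with the CR levels and the obese mix it was -0.10. For Cx3cr1 the order was reversed, with 0.18 from the mix and 0.76 from the levels, as it was for Cxcr4 (-0.04 and -0.54). Ccr1 was -0.11 from the mix and 0.51 from the levels, and Cxcr6 was 0.26 and 0.13. In the mix itself, B cells were 3.30% of obese and 8.89% of CR leukocytes, Fcgr4-high MØs 7.41% and 25.6%, lipid-associated MØs 20.2% and 5.97%, and the remaining MØs 19.8% and 7.87%. With 1 library per group, a difference in sorting or dissociation cannot be told apart from a difference in the tissue. The plot of measured and reweighted ratios sets the 3 values side by side.

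**Figure D3:**
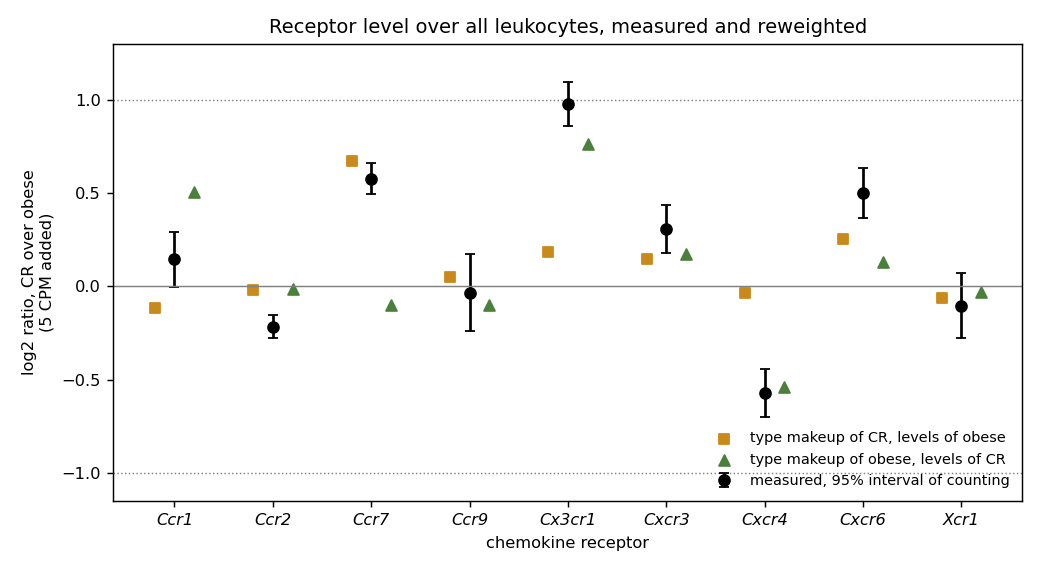
Log2 ratio of CR over obese for each chemokine receptor over all leukocytes (vertical axis, 5 CPM added), as measured with its 95% counting interval (circles), with the CR makeup and obese levels (squares) and with the obese makeup and CR levels (triangles), dotted lines marking a 2-fold change. For Ccr7 the square lies by the circle (0.67 and 0.58), and for Cx3cr1 and Cxcr4 the triangle does (0.76 and 0.98, and -0.54 and -0.57).

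Within types, 61 pairs of a receptor and one of these 12 types had at least 20 UMIs in both libraries together. Of these, 2 were higher in CR, 3 were lower and 56 did not pass the fold, while over all genes in the 12 types 1.93% of pairs were higher and 1.14% lower. The 5 pairs lay in 3 types: Fcgr4-high MØs, with 3 of the 5 receptors measured there, lipid-associated MØs with 1 of 6 and B cells with 1 of 5. The plot of ratios within types shows the 4 receptors of myeloid cells.

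**Figure D4:**
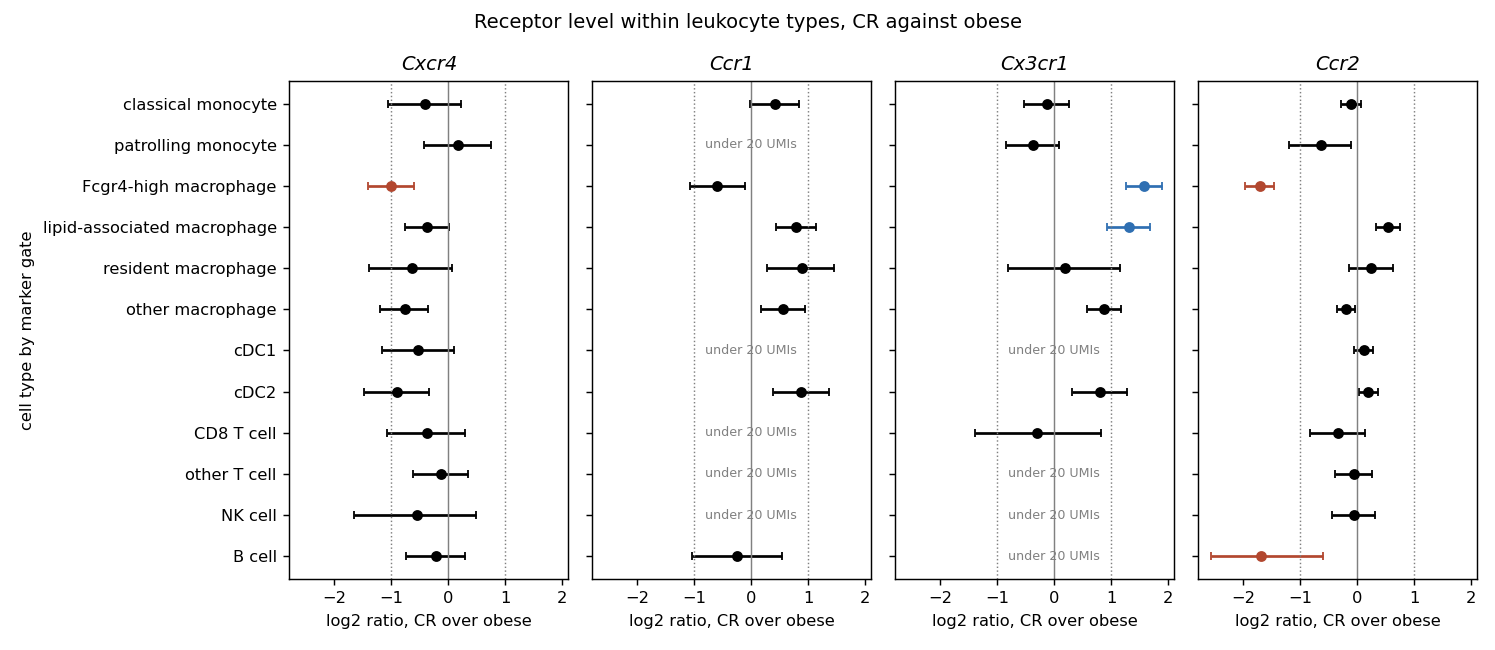
Log2 ratio of CR over obese (horizontal axis, 5 CPM added, with 95% counting intervals) for Cxcr4, Ccr1, Cx3cr1 and Ccr2 in each of the 12 leukocyte types (rows), coloured where past the 2-fold limit marked by dotted lines. Cxcr4 is left of 0 in 11 types, Ccr1 is right of 0 in 5 of the 7 types measured, and Cx3cr1 and Ccr2 part most in Fcgr4-high MØs (1.57 and -1.71).

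Cx3cr1 was higher in CR in Fcgr4-high MØs, at 30.03 (79 UMIs in 369 cells) and 99.1 (378 UMIs in 604 cells), a log2 ratio of 1.57 (1.26 to 1.89), and in lipid-associated MØs, at 13.6 (154 UMIs in 1007 cells) and 41.3 (62 UMIs in 141 cells), a ratio of 1.31 (0.93 to 1.68). The obese level in lipid-associated MØs was near that of the obese cells set aside (8.43, 3.64 to 16.6), against 7.10 in the CR cells set aside, so that the size of that ratio is uncertain. Among all genes, 2.21% were higher in the former type and 1.03% in the latter. Its ratio was 0.88 (0.57 to 1.17) in the remaining MØs and 0.80 (0.31 to 1.28) in cDC2, under the fold with intervals above 0, and 0.19 (-0.80 to 1.15) in resident MØs. After thinning it passed the fold in the remaining MØs (1.13, 0.53 to 1.72) and in cDC2 (1.24, 0.07 to 2.39). In the monocytes, where Cx3cr1 was highest, the values were 236 and 181 in patrolling (-0.37, -0.84 to 0.09) and 158 and 145 in classical monocytes (-0.13, -0.53 to 0.26). The thinned share of cells with a UMI in Fcgr4-high MØs was 7.05% and 12.9%, and that in B cells, which should lack the gene, was 1.22% and 1.43% (medians of 5895 and 5746.5 UMIs, and of 3535 and 2712). Only some markers of patrolling monocytes moved with Cx3cr1 in Fcgr4-high MØs. Besides Fcgr4 itself (2316 and 4231), which the gate uses, the other 5 markers of that list summed to 453 and 856. Most of that sum was Cd300e (365 and 732). In patrolling monocytes Cd300e was 401 and 544, so that in the CR library its level there was below that of Fcgr4-high MØs. In Fcgr4-high MØs Spn was 68.4 and 103 and Eno3 11.4 and 16.0, while Treml4 (4.94 and 1.57) and Ace (3.04 and 3.41) were near 0. In patrolling monocytes the same 5 summed to 1742 and 1726. In lipid-associated MØs they summed to 27.1 and 40.6, and the 6 markers of classical monocytes to 88.1 and 209. The part of such cells in the Cx3cr1 values was not tested.

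Ccr2 was lower in CR in Fcgr4-high MØs, at 141 (370 UMIs) and 39.6 (151 UMIs), a log2 ratio of -1.71 (-1.96 to -1.45), and in B cells, at 30.3 (21 UMIs) and 5.97 (4 UMIs), a ratio of -1.69 (-2.56 to -0.61). After thinning, 13.3% and 2.98% of Fcgr4-high MØs held a Ccr2 UMI, the CR share being near the 2.01% of the CR cells set aside. Among all genes 2.55% were lower in Fcgr4-high MØs and 0.991% in B cells, where 2.97% were higher. Both B cell values were under those of the cells set aside (64.3 and 20.7), which differed in the same direction, so that the B cell pair is not read as expression. In Fcgr4-high MØs the 6 markers of classical monocytes summed to 189 and 95.2, against 8017 and 6737 in classical monocytes themselves, and in B cells to 1367 and 869. Their part in the Ccr2 values was not tested. In the remaining 10 types the ratio ran from -0.64 in patrolling monocytes (194 and 123, -1.18 to -0.10) to 0.55 in lipid-associated MØs (97.8 and 145, 0.34 to 0.75). In patrolling monocytes the markers of classical monocytes summed to 5025 and 2425, and most of that sum was Plac8 (3519 and 1527). Ly6c2 was 168 and 96.5 there, against 993 and 848 in classical monocytes. F13a1 was not lower in CR there (11.7 and 20.5, from 5 and 7 UMIs), against 172 and 259 in classical monocytes. The part of such cells in the Ccr2 ratio of patrolling monocytes was not tested. With stricter gates that ratio passed the fold at -1.66 (-2.80 to -0.58). The value in lipid-associated MØs was not stable, being -0.63 when types were taken from clusters. Classical monocytes (792 and 738, log2 -0.10), NK cells (519 and 501, log2 -0.05), other T cells (160 and 154, log2 -0.06) and cDC1 (350 and 380, log2 0.12) had intervals that included 0.

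Fcgr4-high MØs were not alike in both libraries. By UMIs of the antigen-presenting genes H2-Aa, H2-Ab1, H2-Eb1 and Cd74, counted together after thinning, 220 of 369 obese cells (59.6%) and 16.7% of 604 CR cells held at least 5, a limit chosen after the data had been seen, with 61 and 76 cells at 4 or 5 UMIs. Among the cells under the limit, Ccr2 was 14.5 (7.49 to 25.3) and 10.8 (7.46 to 15.2), a log2 ratio of -0.30 (-1.03 to 0.45), values under those of the cells set aside. Among the cells at or above the limit it was 199 (178 to 220) and 153 (127 to 183), a ratio of -0.37 (-0.67 to -0.07). Within each library Ccr2 was far lower in the low than in the high stratum, and the ratio of CR over obese passed the fold in neither stratum. Cx3cr1 passed it in both, with 36.3 and 98.6 (1.33, 0.84 to 1.84) in the low and 27.2 and 101.1 (1.72, with bounds of 1.24 and 2.197) in the high stratum. Fcgr4 itself was 4452 and 4609 in the low and 1335 and 2744 in the high stratum. The strata were not equal, since the median of the 4 genes among high cells was 59 UMIs in the obese and 10 in the CR library. The bar chart of Fcgr4-high MØs by stratum shows the same values with their intervals.

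**Figure D5:**
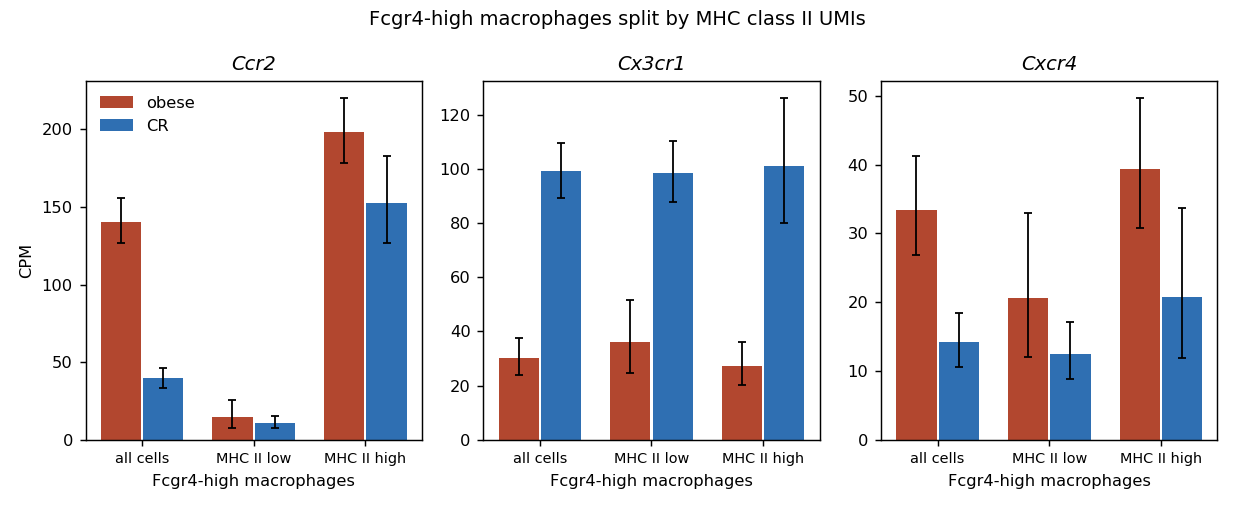
Level of Ccr2, Cx3cr1 and Cxcr4 (vertical axes, CPM, from 0) in all Fcgr4-high MØs and in those under 5 UMIs (MHC II low) and with at least 5 UMIs (MHC II high) of 4 antigen-presenting genes, for the obese (red) and CR (blue) libraries, with 95% Poisson intervals. Ccr2 is near 0 in both low bars (14.5 and 10.8) and high in both high bars (199 and 153), while the blue Cx3cr1 bars stand near 100 in every stratum (99.1, 98.6 and 101.1).

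Cxcr4 was lower in CR in Fcgr4-high MØs, at 33.4 (88 UMIs) and 14.2 (54 UMIs), a log2 ratio of -1.01 (-1.40 to -0.60) that lies at the fold and lost the call under 7 of 11 other settings. Its ratio was below 0 in 11 of the 12 types, with the interval below 0 in 3 of them, and a median over types of -0.46. Beside Fcgr4-high MØs these were cDC2 (51.3 and 25.2, log2 -0.90) and the remaining MØs (67.3 and 37.7, log2 -0.76). Patrolling monocytes were the exception at 119 and 135 (0.17, -0.41 to 0.75). With types from clusters the ratio was below 0 in 10 of 12 types, with stricter gates in 8 of 9 and after thinning in 9 of 10. The types were cells of the same 2 libraries, so that the 11 are not independent. Cxcr4 was also lower in CR in the cells set aside (13 of 948760 UMIs in the obese and 22 of 3379688 in the CR library). The CR level in Fcgr4-high MØs was close to that of the obese cells set aside, so that the size of that ratio is uncertain. Split by antigen-presenting genes, Cxcr4 in Fcgr4-high MØs was 20.5 and 12.5 (-0.55, -1.22 to 0.15) in the low and 39.4 and 20.7 (-0.79, -1.47 to -0.11) in the high stratum.

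Ccr1 was measured in 7 types and was past the fold in none of them. The interval lay above 0 in lipid-associated MØs (24.8 and 46.6, log2 0.79), resident MØs (37.5 and 73.7, log2 0.89), the remaining MØs (34.7 and 53.8, log2 0.57) and cDC2 (30.2 and 59.9, log2 0.88), while classical monocytes held 102 and 137 (0.41, -0.02 to 0.85). The resident MØ value rests on 30 UMIs in 53 CR cells, and after thinning the pair was under the minimum of 20 UMIs. Under other settings Ccr1 passed the fold in lipid-associated MØs (1.64 after thinning), in cDC2 (1.06 with types from clusters) and in the remaining MØs (1.04 with stricter gates), while with types from clusters lipid-associated MØs had 0.081. Fcgr4-high MØs had 14.1 and 7.60 (-0.60, -1.08 to -0.10), close to the cells set aside at 8.43 and 3.55.

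None of the receptors of lymphocytes and DCs passed the fold in a type where they were measured. Under other settings Ccr7 passed it in other T cells (-1.28 with stricter gates and -1.01 with TMM scaling) and in cDC1 (-1.46 with stricter gates), and Cxcr3 (-1.49) and Cxcr6 (-2.11) in cDC2 with types from clusters. With 1 CPM added, Ccr7 also passed it in lipid-associated MØs (-1.84). Xcr1 in cDC1 was nearly the same in both libraries, with a log2 ratio of -0.02 and an interval from -0.27 to 0.22. Cxcr3 was 0.34 (0.09 to 0.59) in cDC1, 0.41 (0.12 to 0.71) in other T cells, 0.06 (-0.35 to 0.45) in CD8 T cells and -0.59 (-1.37 to 0.13) in NK cells. Cxcr6 was 0.40 (0.13 to 0.67) in other T cells and -0.30 (-0.61 to 0.00) in CD8 T cells. Ccr7 was 0.47 (0.27 to 0.66) in B cells and 0.76 (0.34 to 1.17) in cDC2, and -0.87 (-1.29 to -0.46) in other T cells, -0.20 (-0.59 to 0.17) in CD8 T cells and -1.20 (-2.73 to 0.31) in NK cells, the last from 19 and 3 UMIs. In cDC2 the summed markers of migratory DCs, in which Ccr7 was highest, were 93.7 and 138 CPM, and their part in the Ccr7 value was not tested. Migratory DCs, pDCs, IL-17-type T cells and ILC2 had under 50 cells in at least 1 library, and only their levels above are given.

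Among the other chemokine receptors, 15 were in the files and 11 were measured over leukocytes. Past the fold 0 were higher and 0 lower, against 1.61% and 0.263% of all genes. Their median log2 ratio was 0.17, against 0.10 over all genes. Ccr8 was highest in ILC2 (165 and 334), Cxcr5, the receptor of B cell follicles, in B cells (89.6 and 97.0) and Cxcr2, the neutrophil receptor for Cxcl1 and its kin, in neutrophils (76.1 and 485). Ackr3, a scavenger of Cxcl12, was highest in fibroblasts or preadipocytes (275 and 150).

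Of the 18 listed ligands of the 9 receptors, 17 were in the files and 14 were measured over leukocytes, with 0 higher and 3 lower past the fold, against 1.61% of all genes higher and 0.263% lower over leukocytes. The 3 were Ccl6 (1975 and 965, log2 -1.03) and Ccl9 (1653 and 753, log2 -1.13), both ligands of Ccr1, and Cxcl9 (19.8 and 6.83, log2 -1.07), a ligand of Cxcr3 induced by interferon. Ccl6 and Ccl8 were highest in resident MØs of both libraries (3856 and 3255, and 1999 and 3851), as was the Ccr2 ligand Ccl12 (251 and 388), and Ccl9 in lipid-associated MØs (2653 and 2207). Ccl2 and Ccl7 were highest in resident MØs in the obese library (1088 and 1429). In the CR library they were highest in mast cells (1856 and 4184), which numbered 10. The ligand of Cxcr6, Cxcl16, was highest in migratory DCs (945 and 949), and that of Xcr1, Xcl1, in NK cells (1540 and 1586). Cxcl12, which binds Cxcr4, was a transcript of the cells set aside, led by fibroblasts or preadipocytes in the obese (436) and by 15 pericytes or smooth muscle cells in the CR library (800). The Ccr7 ligands Ccl19 and Ccl21a had no UMI in leukocytes (a count of 3 would be a level of 0.0790 and 0.220), and Cx3cl1, which binds Cx3cr1, had 10 and 3.

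Ligand levels were read against B cells and against the 144 and 78 cells gated on haemoglobin genes, since abundant ligands were counted there too. Ccl5 was 171 and 38.8 in B cells and 352 and 32.9 in the haemoglobin-gated cells, and Ccl9 264 and 55.2 and 298 and 85.6, so that values of that size in other types are not read as expression. In Fcgr4-high MØs 1 of 13 ligands measured was higher and 8 were lower past the fold, against 2.21% and 2.55% of all genes. Ccl2, Ccl7 and Ccl12, all ligands of Ccr2, were lower (190 and 74.7, 130 and 57.7, and 60.8 and 18.1), as were Ccl6 (1533 and 529), Ccl9 (1353 and 415), Cxcl9 (74.1 and 7.34), Cxcl10 (37.3 and 15.2) and Cxcl16 (157 and 46.9, log2 -1.64), while Ccl8 was higher (119 and 276, log2 1.17). Of these, Ccl2, Ccl6, Ccl7, Ccl9 and Cxcl16 were also at lower levels in the CR than in the obese library in the haemoglobin-gated cells (48.0 and 23.0, 375 and 109, 62.6 and 23.0, 298 and 85.6, and 29.8 and 14.8). In B cells 2 of 7 ligands were higher and 3 lower past the fold, against 2.97% and 0.991% of all genes. Ccl7 (14.5 and 38.8) and Ccl8 (8.67 and 55.2) were higher there, and Ccl5, Ccl6 and Ccl9 lower.

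Lipid-associated MØs had 3 of 14 ligands higher and 0 lower, against 1.03% and 0.156% of all genes. These were Ccl7 (109 and 348, log2 1.63), Ccl8 (94.2 and 313, log2 1.68) and Ccl12 (10.3 and 95.9, log2 2.72). Ccl7 and Ccl8 were also higher in CR in B cells, at lower levels (14.5 and 38.8, and 8.67 and 55.2). Classical monocytes had 4 of 12 higher and 4 lower, against 2.46% and 1.19%. Ccl12 (24.4 and 118, log2 2.07), Ccl7 (58.9 and 244, log2 1.96) and Ccl3 (107 and 247, log2 1.18) were higher, and Cxcl10 (172 and 59.0, log2 -1.46), Xcl1 (35.5 and 1.90) and Cxcl9 (39.6 and 0) lower. Xcl1 was highest in NK cells (1540 and 1586), and the part of their RNA in its values in classical monocytes was not tested. The other calls there, Ccl5 (339 and 32.3) and Ccl8 (11.2 and 34.2), were at levels that B cells or haemoglobin-gated cells also reached. The remaining MØs had 4 of 13 higher and 0 lower, against 1.46% and 0.388%, among them Ccl12 (57.5 and 274, log2 2.16), Cxcl10 (23.1 and 88.8, log2 1.74) and Cxcl9 (14.01 and 36.8, log2 1.14). In resident MØs 1 of 11 was higher and 0 lower, against 1.78% and 0.897%, namely Cxcl10 (13.6 and 51.6, log2 1.61). Patrolling monocytes had 2 of 7 higher and 1 lower, against 4.15% and 1.8%. The higher ones were Ccl2 (11.7 and 243) and Ccl7 (11.7 and 84.8), whose obese levels were under those of B cells (28.9 and 14.5), and the lower one, Ccl5 (175 and 40.9), was at the level of B cells. In cDC1 0 of 11 were higher and 4 lower, against 0.915% and 0.401%, of which Cxcl9 (23.5 and 2.83) was above the B cells and haemoglobin-gated cells in the obese library and Ccl5, Cxcl10 and Xcl1 were not. In cDC2 Cxcl10 was at 11.1 and 57.8 and Cxcl9 at 24.4 and 2.10, with 1 of 11 higher and 1 lower, against 1.52% and 0.752%. Of 9 ligands measured in CD8 T cells 2 were higher and 2 lower. Xcl1 was higher (156 and 539, log2 1.76) and Ccl3 lower (845 and 98.1, log2 -3.04), against 2.04% of all genes higher and 1.64% lower. In other T cells 2 of 10 were higher and 4 lower, against 2.5% and 2.05%, and here Xcl1 was lower (244 and 115, log2 -1.05), as was Ccl3 (140 and 25.8, log2 -2.23). In NK cells 0 of 5 were higher and 1 lower, against 2.04% and 1.92%, the 1 being Ccl9 (150 and 41.7), which was under its B cell level. The levels in the haemoglobin-gated cells were 44.4 and 18.1 for Ccl3 and 13.8 and 0 for Xcl1.

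Of the listed genes for G proteins, arrestins, kinases and regulators of signalling, 18 of 19 were in the files. Over leukocytes 0 were higher and 0 lower, against 1.61% and 0.263% of all genes. Rgs18, a regulator that shortens G protein signals, was lower in Fcgr4-high MØs (27.4 and 5.24, log2 -1.66), against 2.55% of all genes lower in that type. It was also lower in other T cells (15.6 and 3.88, log2 -1.22), against 2.05% of all genes. In B cells its levels differed in the same direction (11.6 and 4.48). Arrb1 (-1.24) and Adrbk1 (-1.33), an arrestin and a receptor kinase that end signalling, were lower in classical monocytes, against 1.19% of all genes.

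Genes with the most similar pattern were sought by Pearson correlation of log2 levels over 26 pairs of a type and a library (13 types with at least 30 cells in each library), among 4763 genes outside the receptors and gate markers. The points of a library share depth and free RNA, and the values are descriptions. Xcr1 was most like A530099J19Rik (0.98), Gcsam (0.95) and Pdia5 (0.88), Cxcr6 like Lat (0.97), Bcl11b (0.97) and Ehd3 (0.97), the first a T cell receptor adaptor and the second a T cell transcription factor, and Cxcr3 like Anxa6 (0.91), Cd226 (0.90), an activating receptor of NK and T cells, and Arl4a (0.89). Cx3cr1 was nearest to Lpcat2 (0.92), Pilrb1 (0.91) and Prdx5 (0.91), and Ccr7 to Foxp4 (0.92), Mif4gd (0.89) and Cd200 (0.87). Ccr1 had as its nearest genes Ctsc (0.84), Clec4n (0.81) and Fn1 (0.80), Ccr2 had Ssbp4 (0.82), Mrps24 (0.80) and Fxyd5 (0.80), and Cxcr4 had Rasgrp2 (0.80), Ptbp3 (0.77) and Foxn3 (0.76). Ccr9 did not pass 17.2 CPM in these types, and its neighbours Hspa8 (0.69), Tap1 (0.69) and Lag3 (0.69) are not interpretable at that level. Among the receptors themselves, Cxcr3 and Cxcr6 were the most alike (0.75).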

How the data were processed

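Live CD45+ cells from the VAT of obese and CR mice were profiled with droplet 3' chemistry of version 2, 1 library per group. The authors made the deposited counts with Cell Ranger 2.2 on mm10, as filtered matrices of UMI counts per gene and barcode, before their filters on outlying cells. The lean library was not analysed here. Barcodes with at least 200 genes were kept when their mitochondrial share and log10 UMI total were at most 3 scaled median absolute deviations above the library median, which left 5262 of 5795 obese and 2987 of 3562 CR barcodes.

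Each kept cell was gated on marker genes, and cells with markers of several lineages (5.06% and 2.75% of leukocytes) or of none (5.49% and 8.08%) were given no type. Doublets were otherwise left in, and were removed in an alternative. UMIs were pooled per type and library and divided by the pooled total (CPM, per 1000000 UMIs), with exact Poisson intervals. Ratios carried 5 CPM on each side and an exact conditional binomial interval at 95%. A pair was measured with at least 20 UMIs, and types needed 50 cells in each library. Shares used cells thinned to 1500 UMIs. With 1 library per group there is no test between conditions and no p-value. The genes named were the 9 receptors and the members of the ligand, receptor and signalling lists past the fold in a type. For each receptor the 3 genes of highest Pearson correlation of log2(CPM + 5) were added. Only genes with at least 50 CPM in 1 pair of type and library were compared for this. The type with the highest level was given for some ligands, mostly those with the same leading type in both libraries. Other genes with values, among them Ccr8, Cxcr5, Cxcr2 and Ackr3, were named after their values were seen. The receptors, lists and comparisons were chosen with earlier results of these data known. Alternatives covered gates, clusters, scaling, filters, doublets, thinning and the added constant. The scripts were tested on simulated data. Python 3.11.15, numpy 2.4.6, scipy 1.17.1, pandas 2.3.3, scanpy 1.11.5 and leidenalg 0.10.2 were used.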

Additional observations from a re-analysis of the deposited data

Results flagged for a closer look

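For some receptors the log2 ratio was above 0 in one type and below 0 in another, with intervals that left out 0. The log2 ratio of CR over obese for Ccr1 was 0.89 in resident MØs and -0.60 in Fcgr4-high MØs, where its level was close to that of the cells set aside. For Ccr2 it was 0.55 in lipid-associated MØs, a value that turned to -0.63 with types from clusters, and -1.71 in Fcgr4-high MØs. For Ccr7 it was 0.76 in cDC2 and -0.87 in other T cells. The difference between the types was not tested, since each group had 1 library.

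Receptor UMIs were also counted in the 141 obese and 546 CR cells with markers of stroma or vessels, which enter no comparison between leukocyte types and serve there as a background level. Ccr2 had 61 UMIs in the obese and 70 in the CR library, Ccr7 9 and 46, Cx3cr1 8 and 24, Cxcr4 13 and 22, Ccr1 8 and 12, Cxcr3 9 and 11, and Cxcr6 9 and 4. Xcr1 had 6 in the obese library. These counts are above the limit of 3 that a count of 0 allows.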

How the results depend on the processing

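No paired analysis was possible because each group had 1 library, and for the same reason no replicate could be left out. Every alternative was planned except the split by antigen-presenting genes, which was chosen after seeing the data. Over all leukocytes, the 72 alternative log2 ratios held 43 that moved by less than the counting interval, and 29 that moved by more. With TMM scaling, which shifted the CR library by 0.23, the ratio was -0.046 for Ccr1, -0.44 for Ccr2, 0.36 for Ccr7, 0.77 for Cx3cr1, 0.11 for Cxcr3, -0.77 for Cxcr4 and 0.30 for Cxcr6. With a mean over cells it was -0.11 for Ccr1, -0.47 for Ccr2, 0.45 for Ccr7, -0.24 for Ccr9, 0.75 for Cx3cr1 and -0.43 for Xcr1. With all kept cells it was -0.063 for Ccr1, -0.48 for Ccr2, 0.34 for Ccr7, 0.74 for Cx3cr1, 0.049 for Cxcr3, -0.76 for Cxcr4, 0.25 for Cxcr6 and -0.32 for Xcr1. After thinning it was -0.45 for Ccr2, -0.27 for Ccr9, -0.40 for Cxcr4 and -0.33 for Xcr1. With 20 CPM added it was 0.74 for Cx3cr1, -0.43 for Cxcr4 and 0.36 for Cxcr6, a shrinkage built into the larger constant. Without the filters on mitochondrial share and UMI total Ccr2 was -0.30. Within types, 5 pairs were higher after thinning and 1 with the larger constant, against 2 in the report. The lower pairs numbered 5 with stricter gates, 5 with TMM scaling, 1 after thinning and 1 with the larger constant, against 3. Cx3cr1 (1.04 to 1.69) and Ccr2 (-2.19 to -1.33) in Fcgr4-high MØs passed the fold in all 11 alternatives. Cx3cr1 in lipid-associated MØs did not pass with types from clusters or the larger constant, nor Ccr2 in B cells after thinning or with the larger constant. The log2 ratio reversed for Ccr2 in lipid-associated MØs (-0.63 with types from clusters). For Ccr1 in resident MØs it was -1.11 (-2.91 to 1.14) after thinning, from a pair under the minimum of 20 UMIs. Without thinning, the log2 ratio of the shares of leukocytes with a UMI was -0.45 for Ccr1, -0.73 for Ccr2, 0.33 for Ccr7, 0.46 for Cx3cr1, -0.84 for Cxcr4 and 0.15 for Cxcr6, CR cells being the shallower. Apart from these, the cause of a change was not tested. The leading type of a receptor changed for Ccr1 in both libraries and Cxcr3 in the obese library with types from clusters, and for Cxcr3 in the obese library with stricter gates. Values of rare types rest on few cells: pDCs had 23 and 7 cells, and neutrophils 10 and 11.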

Other observations

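Cycling MØs, those with at least 3 of 5 cycling markers, numbered 177 in the obese and 51 in the CR library, against 2024 and 783 with none. Cx3cr1 was 38.2 and 106 CPM in cycling and 27.2 and 81.5 in the other MØs. Ccr2 was 182 and 166 in cycling and 193 and 126 in the other MØs. Cxcr4 was 34.6 and 12.8 in cycling and 56.1 and 25.2 in the other MØs. The counting intervals of cycling and other MØs were apart for Cx3cr1 and Cxcr4 in the obese library and overlapped in the CR library.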
